A study of Mus musculus with 3 samples.

Results

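The genes described here carry glucose into the cell and through glycolysis: 32 members, chosen by name, of the 21992 protein-coding gene symbols in the annotation. They hold the glucose transporters *Slc2a1* and *Slc2a3*, the monocarboxylate transporters *Slc16a1* and *Slc16a3*, the enzymes from hexokinase to lactate dehydrogenase, and the pyruvate dehydrogenase kinases. They were divided by common knowledge into 15 ubiquitous, 11 intermediate (broadly used but enriched in some tissues or inducible) and 6 tissue-specific genes. Open chromatin was measured by ATAC-seq, in which a transposase cuts and tags accessible DNA, in 4 pre/pro-B-cell lines. The lines came from bone marrow of mice homozygous either for wildtype *Cdk6* or for *Cdk6* K43M, whose product lacks kinase activity, and all were transformed by retroviral BCR-ABL(p185), the leukaemic fusion kinase. Each of the 4 peak lists stands for 1 cell line: WT unnumbered, WT 2, K43M 1 and K43M 2. WT unnumbered has no sample label and was placed by the study's design text. By that text it is an earlier deposit that was processed anew, whereas the other 3 lines were deposited with the study. An earlier origin of 1 of the 2 WT lists cannot be told apart from line and genotype, so results are also given without it where they change.

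Glycolysis converts glucose to pyruvate in the cytosol. Pyruvate then either enters the mitochondria through pyruvate dehydrogenase or is reduced to lactate, which leaves the cell through monocarboxylate transporters. Most steps are encoded by several paralogous genes, of which 1 is used in nearly every cell and others in muscle, brain, liver or blood cells, and dividing leukaemic cells are known for high glucose uptake.

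Promoter sequences are shown for 3 pairs of paralogs and for *Slc2a1*, because peaks at these starts separated the isoenzyme classes or differed between genotypes. They are RefSeq windows of the GRCm38.p6 build, 250 bases before to 50 after a start, on the strand of the gene. Capitals mark matches on either strand to 5 motifs: the E-box CACGTG, the hypoxia core ACGTG or GCGTG, the SP1 box GGGCGG, the CCAAT box and the ETS site CCGGAAG. The E-box contains the hypoxia core. The first pair are the aldolases that split fructose bisphosphate, *Aldoa* (chr7:126799205-126799504, minus strand) in most cells and *Aldoc* (chr11:78322823-78323122, plus strand) in brain.
Aldoa: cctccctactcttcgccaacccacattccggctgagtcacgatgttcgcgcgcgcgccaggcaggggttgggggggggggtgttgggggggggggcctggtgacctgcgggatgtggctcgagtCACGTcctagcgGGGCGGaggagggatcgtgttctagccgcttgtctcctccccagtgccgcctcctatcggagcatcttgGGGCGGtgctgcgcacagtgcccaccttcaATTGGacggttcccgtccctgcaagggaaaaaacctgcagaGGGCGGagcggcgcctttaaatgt
Aldoc: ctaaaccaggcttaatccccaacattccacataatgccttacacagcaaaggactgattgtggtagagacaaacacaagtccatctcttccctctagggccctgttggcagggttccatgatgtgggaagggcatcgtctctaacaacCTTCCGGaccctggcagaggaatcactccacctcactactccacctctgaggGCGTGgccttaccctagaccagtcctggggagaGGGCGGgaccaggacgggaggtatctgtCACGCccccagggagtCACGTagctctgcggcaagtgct
The next are the enolases, *Eno1* (chr4:150236947-150237246, plus strand) in most cells and *Eno2* (chr6:124769624-124769923, minus strand) in neurons.
Eno1: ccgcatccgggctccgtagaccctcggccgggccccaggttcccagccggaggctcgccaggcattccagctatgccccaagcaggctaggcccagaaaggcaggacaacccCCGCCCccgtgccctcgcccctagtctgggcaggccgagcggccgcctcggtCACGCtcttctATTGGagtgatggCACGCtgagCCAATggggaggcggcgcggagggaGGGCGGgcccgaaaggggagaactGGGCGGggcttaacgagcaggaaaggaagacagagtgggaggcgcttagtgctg
Eno2: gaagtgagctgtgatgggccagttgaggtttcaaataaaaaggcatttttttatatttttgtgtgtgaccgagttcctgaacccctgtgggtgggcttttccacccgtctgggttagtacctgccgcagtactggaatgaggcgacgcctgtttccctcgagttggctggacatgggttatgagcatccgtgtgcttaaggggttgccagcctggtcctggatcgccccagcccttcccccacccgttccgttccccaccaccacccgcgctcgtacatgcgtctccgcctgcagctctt
The last are the lactate dehydrogenase subunits, *Ldha* (chr7:46845554-46845853, plus strand) and *Ldhb* (chr6:142507908-142508207, minus strand), the latter typical of heart.
Ldha: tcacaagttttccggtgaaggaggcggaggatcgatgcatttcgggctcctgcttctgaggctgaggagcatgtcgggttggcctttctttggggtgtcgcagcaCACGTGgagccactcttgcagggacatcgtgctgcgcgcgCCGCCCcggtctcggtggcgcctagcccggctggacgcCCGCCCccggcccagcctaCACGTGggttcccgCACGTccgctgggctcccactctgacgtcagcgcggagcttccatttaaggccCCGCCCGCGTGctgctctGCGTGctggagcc
Ldhb: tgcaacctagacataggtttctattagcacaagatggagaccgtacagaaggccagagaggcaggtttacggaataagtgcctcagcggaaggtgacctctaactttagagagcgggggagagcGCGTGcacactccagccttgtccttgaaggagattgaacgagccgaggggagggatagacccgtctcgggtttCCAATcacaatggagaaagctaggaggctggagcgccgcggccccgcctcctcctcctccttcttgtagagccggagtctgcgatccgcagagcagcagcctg
*Slc2a1* (chr4:119108495-119108794, plus strand) encodes the basal glucose transporter GLUT1.
Slc2a1: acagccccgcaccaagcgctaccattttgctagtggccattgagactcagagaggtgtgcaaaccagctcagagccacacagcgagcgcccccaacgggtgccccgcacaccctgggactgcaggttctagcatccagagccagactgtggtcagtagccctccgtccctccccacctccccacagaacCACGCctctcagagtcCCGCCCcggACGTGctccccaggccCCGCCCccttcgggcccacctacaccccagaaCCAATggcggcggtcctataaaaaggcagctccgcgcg
The window shown for *Aldoa* had a peak in all 4 lists and that of *Aldoc* in the 2 K43M lists. The *Eno1* window had a peak in all 4 lists and the *Eno2* window in the 2 K43M lists. The *Ldha* window had a peak in all 4 lists and the *Ldhb* window in none.

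The lists held 33038 to 39038 peaks. A summit pileup is the number of 200-bp read extensions over the highest base of a peak. It was recovered from the deposited fold enrichment and -log10 p for all peaks, with a median between 22 and 26. Pileups below are unscaled, and the factors that put the lists on 1 scale ran from 0.880 for K43M 2 to 1.08 for WT unnumbered. A taller peak can come from more cells with the site open or from more cuts per cell, which cannot be told apart in bulk. A peak list gives no depth, so a gene without a peak is not shown to be closed. The promoter window of a gene held 2000 bp before and 200 bp after each of its annotated starts. By this measure 7 of 8 B-lineage markers had a promoter peak in all lists, and *Cd79b* lacked it in K43M 2. None of the 3 T-lineage markers had a peak in any list, nor did 4 of 5 myeloid and 3 of 4 non-blood markers. The exceptions were *Lyz2* in both WT lists and *Gfap* in WT 2.

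Promoter peaks differed between the isoenzyme classes as drawn here. The classes were set by common knowledge, and the gene lists were chosen with earlier results of these data known. The counts by class are therefore a description and not a test. A promoter peak in all 4 lists was found for 23 of the 32 members (71.9%), against 47.5% of all protein-coding genes. All 15 ubiquitous genes had it, as did 7 of 11 intermediate and 1 of 6 tissue-specific genes. *Pfkfb3* was counted as ubiquitous although it is inducible, so the border between the ubiquitous and intermediate classes is not strict. Counts in the single lists were 26 and 24 members in WT and 28 and 26 in K43M. Over all protein-coding genes they were 11124 and 11089 in WT and 11847 and 11542 in K43M. No peak was present in any list for 4 members: *Hk3*, the hexokinase of myeloid cells, *Pklr*, the pyruvate kinase of liver and red cells, *Ldhb*, and *Pdk4*, a pyruvate dehydrogenase kinase induced by fasting. These 4 genes had no region anywhere in the gene body or the 10 kb on either side. Of 46 other genes of glucose metabolism, 34 had a promoter peak in all lists and 9 in none. Broadly used genes among them had it in 29 of 30 cases and tissue-specific ones in 5 of 16.

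**Figure D1:**
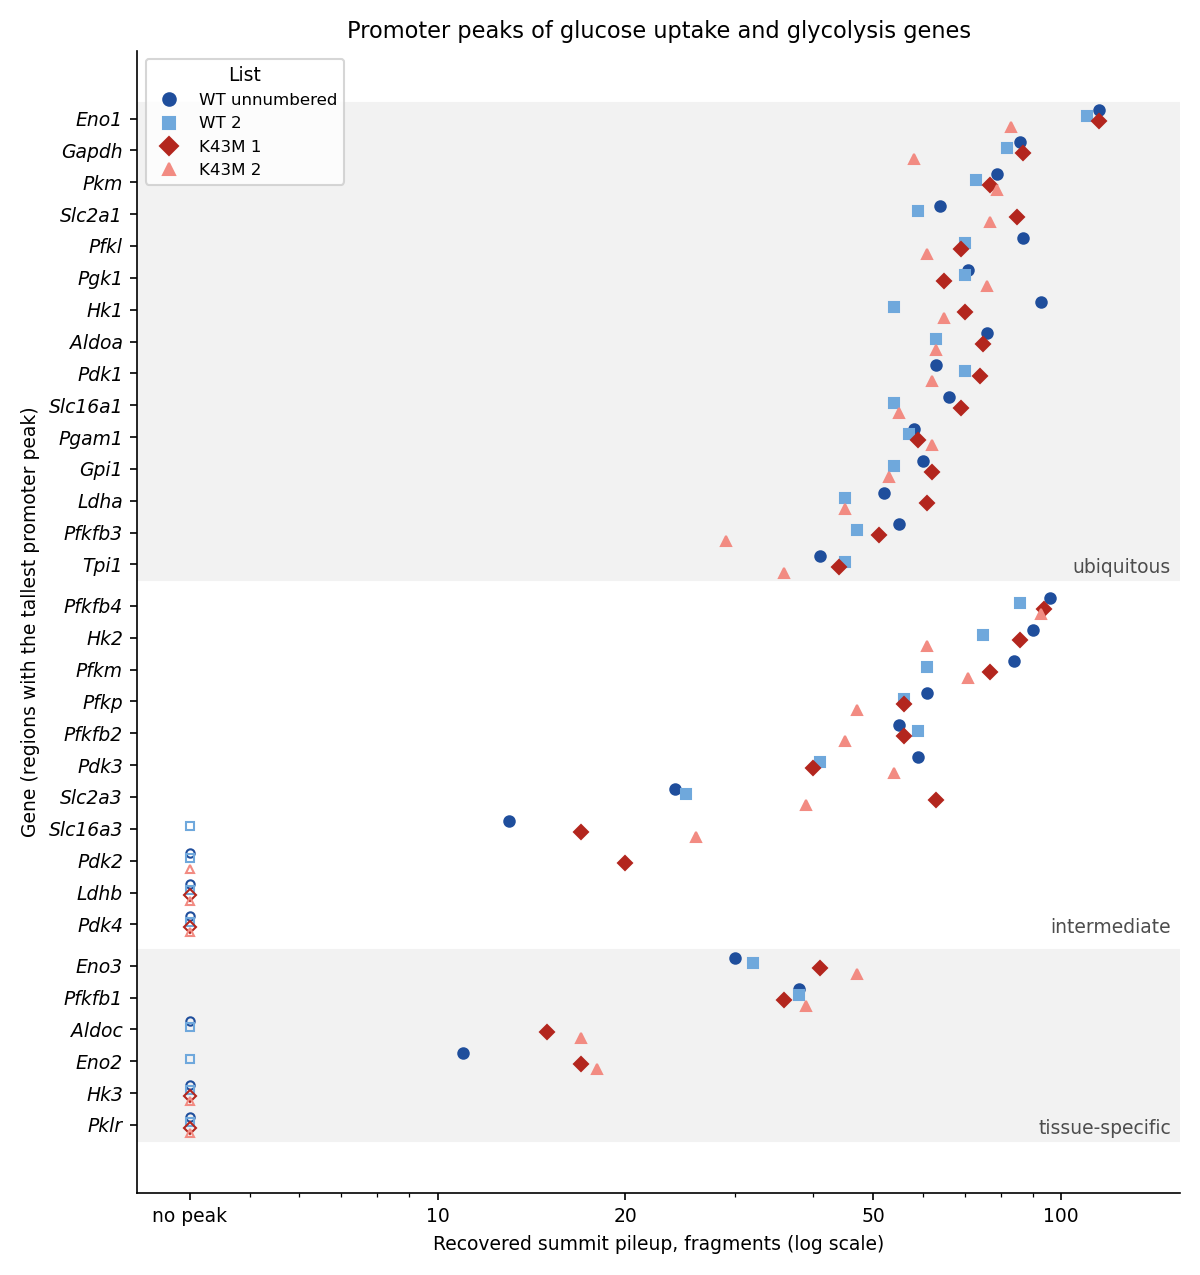
Recovered summit pileup (log axis) in the 4 lists for 1 promoter region of each of the 32 genes, grouped by isoenzyme class and ordered by mean. The region drawn is the one in most lists and, among equals, the tallest by mean scaled pileup. Filled symbols are peaks and open symbols at the left mark lists without a peak. The ubiquitous genes have peaks in every list, while peaks are missing for 4 intermediate and 4 tissue-specific genes in at least 1 list.

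Heights differed among the shared promoters as well. Pileups scaled between lists and averaged over them had a median of 68.8 in the 15 ubiquitous genes, with a range from 41.3 (*Tpi1*, triose phosphate isomerase) to 105 (*Eno1*). In the 7 intermediate genes the median was 54.6, from 37.6 (*Slc2a3*) to 92.1 (*Pfkfb4*). Each of these genes entered with its tallest promoter region alone. The median of all 10142 shared promoter regions, with those at secondary starts included, was 50.4. The *Eno1* promoter stood at percentile 97.1 of them, *Pfkfb4* at 93.1 and *Gapdh*, which encodes the triose phosphate dehydrogenase, at 83.0, whereas *Slc2a3* stood at 29.6. Taking the tallest region of a gene raises the members against this reference. Their shared second promoter regions, left out here, stood between 17.2 (*Aldoa*) and 38.1 (*Pfkfb2*). The classes overlapped, since *Pfkfb4* and *Hk2* were taller than most ubiquitous genes.

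Of the tissue-specific genes, *Pfkfb1*, the liver form of the bifunctional enzyme that makes and removes the activator of phosphofructokinase, was the only one with a promoter peak in every list. Its pileups were 38, 38, 36 and 39, here and below in the order WT unnumbered, WT 2, K43M 1 and K43M 2. The highest summit of this region, that of K43M 2, lay 19 bp from the start of *Apex2*, a neighbouring DNA repair gene. It was 114 bp upstream of *Pfkfb1* itself. The summit of WT unnumbered lay on the *Pfkfb1* start, and those of WT 2 and K43M 1 lay 10 and 11 bp upstream of it. *Eno3*, the muscle enolase, also had the start of a neighbouring gene close by. Its promoter window was entered by a region in WT unnumbered, WT 2 and K43M 1 with pileups of 32, 39 and 23, and by the edge of a region in all lists with 30, 32, 41 and 47. The summit of the latter was 11 bp from the start of *Pfn1*, which encodes the actin-binding protein profilin. Its K43M 2 peak did not reach the window, so *Eno3* counted as open in 3 lists while its region counted as shared. The summit of the former was 1367 bp upstream of *Eno3* and 1191 bp from *Pfn1*.

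The other tissue-specific genes with peaks, *Aldoc* and *Eno2*, had low ones at their starts. At *Aldoc* (chr11:78322894-78323205, exonic) no peak was present in the WT lists, and pileups were 15 and 17 in K43M 1 and K43M 2. *Aldoc* was the only member with a promoter peak in both K43M lists and in neither WT list, a pattern of 2.00% of all protein-coding genes. The opposite pattern had 0 members, against 0.514% of all genes. At *Eno2* (chr6:124769304-124769770, exonic) pileups were 11 in WT unnumbered, 17 in K43M 1 and 18 in K43M 2, with no peak in WT 2. The *Aldoc* peaks stood at percentiles 20.3 and 44.5 of their lists by -log10 q, and the *Eno2* peaks at 4.68, 43.8 and 45.0. All of them were thus below the middle of their lists. Without WT unnumbered the members with promoter peaks in K43M alone were *Slc16a3*, *Aldoc* and *Eno2*.

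At some regions of the glucose transporters, but not at all of them, the K43M lists had additional or taller peaks. The promoter region of *Slc2a1* (chr4:119108429-119109509, 1081 bp, over the first exon) had pileups of 64 and 59 in the WT lists and of 85 and 77 in the K43M lists. The groups did not overlap, and the log2 difference of K43M to WT was 0.50 ± 0.14 (SE, n = 2 lists per genotype, limma adjusted p = 0.0579), short of the threshold of 0.05. The local background also differed, with 261, 333, 465 and 321 read ends in 10 kb around this peak. Fold enrichment, which divides by that background, was 10.5, 7.83, 8.35 and 10.5, and there the groups overlapped. With this measure the log2 difference was 0.05 (limma adjusted p = 0.948). *Slc2a1* has 5 annotated starts, among them the first at chr4:119108711 and another at chr4:119108914. The summit position separated the genotypes. In the WT lists it lay 493 and 486 bp downstream of the first start. In the K43M lists it lay 1 bp upstream and 15 bp downstream of that start. Of the 53 shared regions of the members, this was the only one with summits within 100 bp of each other inside each genotype and at least 200 bp apart between genotypes, a pattern of 1.19% of all shared regions. This comparison was made after the *Slc2a1* summits had been seen. If the summit had to lie in the promoter window, *Slc2a1* would count as open in K43M alone.

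A second region, 2784 bp upstream of the *Slc2a1* start (chr4:119105769-119106083), had peaks in the K43M lists alone, with pileups of 47 and 29 at percentiles 60.4 and 36.1 by -log10 q. Both were above the median pileup of their lists. Its local background of 453 and 328 read ends in 10 kb covers the promoter too. Inside the gene, 2 intronic regions in all lists had pileups of 13, 11, 23 and 15 and of 54, 46, 57 and 48. For the weaker of these the log2 difference was 0.74 ± 0.31 (limma adjusted p = 0.212).

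*Slc2a3* encodes GLUT3, a transporter of high affinity found in neurons and leukocytes, and has a far upstream start besides the start of its usual transcript. At the upstream start (chr6:122801011-122802319) pileups were 24 and 25 in WT and 63 and 39 in K43M. Both K43M values were above both WT values. The log2 difference was 1.12 ± 0.24 (limma, Benjamini-Hochberg adjusted p = 0.0224), and this region was called higher in K43M. The background around it was also higher in the K43M lists, with 204, 196, 377 and 265 read ends in 10 kb. Fold enrichment was 4.92, 5.28, 7.49 and 6.35, and with this measure the log2 difference was 0.44 and the adjusted p was 0.413. At the usual start (chr6:122742424-122742789, exonic) the WT lists had no peak and the K43M lists had pileups of 19 and 13. A region 9489 bp upstream of the distal start, the strongest around the gene, had 126, 118, 113 and 86, and its log2 difference was -0.20 ± 0.10 (limma adjusted p = 0.292). The K43M lists were thus higher at the upstream start, and not at the tall flank.

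The lactate transporters differed from each other. *Slc16a1*, which encodes MCT1, had pileups of 66, 54, 69 and 55 at its promoter. The genotypes overlapped in these unscaled values but not on the common scale, where the pileups were 61.0 and 54.0 in WT and 64.7 and 62.5 in K43M. The log2 difference was 0.15 ± 0.15 (limma adjusted p = 0.666). An intronic region 5446 bp downstream (chr3:104643840-104644239) had peaks in the WT lists alone, with 15 and 17. *Slc16a3*, the lactate exporter MCT4 induced in hypoxia, had 1 region in its window, at an inner start (chr11:120950709-120951348). Pileups were 13 in WT unnumbered, 17 in K43M 1 and 26 in K43M 2, with no peak in WT 2. Its RefSeq start window, which is rich in CpG, had none in any list.

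Among the hexokinases, which trap glucose as its phosphate, *Hk1* and *Hk2* were open in all lists. The *Hk1* promoter had pileups of 93, 54, 70 and 65, so its spread between the WT lists exceeded that between genotypes. *Hk2*, the inducible form, had 90, 75, 86 and 61 at its main start, with a log2 difference of -0.08 ± 0.13 (limma adjusted p = 0.810). An intronic region of *Hk2* (chr6:82763946-82764490) was in the K43M lists alone, with 12 and 21. One of *Hk1* (chr10:62306572-62307010) was in the WT lists alone, with 19 and 11. *Gpi1*, the isomerase of the next step, had 60, 54, 62 and 53 at its promoter. An exonic region of it (chr7:34215581-34215950) was in the K43M lists alone, with 16 and 18.

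The 3 phosphofructokinase genes, which commit glucose to glycolysis, were open in all lists. Pileups at their tallest promoter were 87, 70, 69 and 61 for *Pfkl*, the liver form, and 84, 61, 77 and 71 for *Pfkm*, the muscle form. The *Pfkm* region had its summit 21 bp from the start of *Senp1*, and a second region at an inner start of *Pfkm* had 25, 34, 37 and 33.

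*Pfkp*, the platelet form, had 8 regions in its window, the most of all members. At its main start pileups were 61, 56, 56 and 47, and the log2 difference was -0.09 ± 0.16 (limma adjusted p = 0.833). At an inner start (chr13:6637019-6637456, intronic) they were 31, 16, 47 and 37. There both K43M values were above both WT values, with a log2 difference of 1.01 ± 0.29 (limma adjusted p = 0.0744), short of the threshold. The local background was 168, 108, 224 and 197 read ends in 10 kb, and with fold enrichment the log2 difference was 0.39 (limma adjusted p = 0.494). The value rested on the low WT 2 list. Without WT unnumbered the log2 difference was 1.40 (limma adjusted p = 0.00815) and without WT 2 it was 0.57 (limma adjusted p = 0.329), in each case with a lone WT list assumed to vary like the others. Intronic regions were found 877 bp downstream of the main start in the WT lists alone (27 and 23), and at chr13:6618803-6619035 in the K43M lists alone (12 and 13). The gene lies on chromosome 13, where the local background relative to the autosomes was 0.05 and -0.01 on the log2 scale in the WT lists and -0.43 and -0.50 in the K43M lists. The part of this background in the *Pfkp* values was not tested.

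The bifunctional enzymes set the level of the activator of phosphofructokinase. *Pfkfb4* had a tall promoter peak with pileups of 96, 86, 94 and 93, and *Pfkfb2*, the heart form, had 55, 59, 56 and 45. At the main start of *Pfkfb3*, the inducible form found in dividing cells, pileups were 55 and 47 in WT and 51 and 29 in K43M. These values overlapped, and the log2 difference was -0.30 ± 0.22 (limma adjusted p = 0.504); with fold enrichment it was 0.04. An intronic region 1210 bp downstream of that start (chr2:11552287-11553412) had 68 and 57 in WT and 53 and 35 in K43M. Both K43M values were below both WT values, with a log2 difference of -0.43 ± 0.18 (limma adjusted p = 0.216) that did not pass the threshold. A region deeper in the gene had the opposite order. This intronic region, 18380 bp downstream of the same start (chr2:11535282-11535902), had pileups of 12 and 15 in WT and 34 and 24 in K43M. Both K43M values were above both WT values, and the region was called higher in K43M (log2 difference 1.19 ± 0.31, limma adjusted p = 0.0483). Its background was 82, 76, 91 and 91 read ends in 10 kb, and its fold enrichment was 4.92, 6.35, 12.4 and 8.87. The call was lost with fold enrichment (limma adjusted p = 0.131), with quantile normalisation (0.0747), without the variance trend (0.0759) and without WT unnumbered (0.181). At an inner start (chr2:11501277-11502293) the K43M lists alone had peaks, with pileups of 29 and 13.

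The 100 bases on either side of the highest summit of the intronic *Pfkfb3* region (chr2:11535442-11535642, GRCm38.p6, minus strand) are shown because it was called. Capitals mark the same motifs as above.
Pfkfb3_intron: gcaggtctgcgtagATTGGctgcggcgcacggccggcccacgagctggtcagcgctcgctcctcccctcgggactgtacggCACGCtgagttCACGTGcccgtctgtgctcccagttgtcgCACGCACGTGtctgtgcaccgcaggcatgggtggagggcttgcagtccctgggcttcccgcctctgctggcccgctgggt
This stretch has 69.2% G and C and 19 CpG. It holds 2 matches to the E-box CACGTG and 6 to the hypoxia core, which lies on both strands of each E-box. At least 1 E-box was found in 6.29% of the same windows in 20964 shared regions on the chromosomes, and 2 or more in 0.429%. Those windows had a median of 56.7% G and C, lower than this stretch, and windows of like composition were not compared. A match is a match of letters and shows no binding.

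The aldolases, enolases and lactate dehydrogenases set out above differed within each pair. *Aldoa* had pileups of 76, 63, 75 and 63 at the start shown and of 14, 19, 21 and 15 at an upstream start, against none and 15 and 17 for *Aldoc*. *Eno1* had 115, 110, 115 and 83, the tallest promoter of the members in each list but K43M 2, where *Pfkfb4* had 93. *Ldha* had 52, 45, 61 and 45, with a log2 difference of 0.22 ± 0.18 (limma adjusted p = 0.559), and *Ldhb* had no peak. The *Aldoa*, *Eno1* and *Ldha* promoters were thus taller in every list than any of the *Aldoc* and *Eno2* peaks.

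The remaining steps had promoters open in every list. *Tpi1* had 41, 45, 44 and 36. *Gapdh* had 86, 82, 87 and 58, with a log2 difference of -0.14 ± 0.14 (limma adjusted p = 0.646). *Pgk1*, the phosphoglycerate kinase, had 71, 70, 65 and 76. *Pgam1*, the mutase, had 58, 57, 59 and 62, and *Pkm*, which encodes the pyruvate kinase of most tissues, 79, 73, 77 and 79. In each of these genes the genotypes overlapped in scaled pileups. *Pgk1* lies on chromosome X, where the local background relative to the autosomes was -0.27, -0.32, -0.34 and -0.15 on the log2 scale, and its part in these values was not tested.

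The pyruvate dehydrogenase kinases, which hold pyruvate back from the mitochondria, spanned the whole range. *Pdk1* had promoter pileups of 63, 70, 74 and 62 and *Pdk3* 59, 41, 40 and 54. *Pdk2* had a peak in K43M 1 alone (chr11:95041167-95041586), with 20, and a region 5807 bp upstream of its start in all lists with 12, 12, 12 and 19. *Pdk4* had none. The family thus ran from promoters open in every list to none at all.

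Over all gene windows, the gene body with 10 kb on either side, the members held 99 merged regions. There were 70 and 67 in the WT lists and 81 and 77 in the K43M lists. The whole lists held 33038 and 34248 peaks in WT and 39038 and 34752 in K43M. Of the 99, 53 were in all 4 lists, 7 in both K43M lists alone and 3 in both WT lists alone. The share over the windows of all protein-coding genes was 7.82% for K43M-only and 3.79% for WT-only regions, so the members' counts were near the background. In promoter windows there were 37 regions, of which 29 were in all lists, 3 in the K43M lists alone and 0 in the WT lists alone. The background of K43M-only regions there was 5.34%. The 3 were at *Slc2a3*, *Pfkfb3* and *Aldoc*. The other K43M-only regions lay near *Slc2a1*, *Hk2*, *Gpi1* and *Pfkp*, and the WT-only regions in introns of *Slc16a1*, *Hk1* and *Pfkp*.

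**Figure D2:**
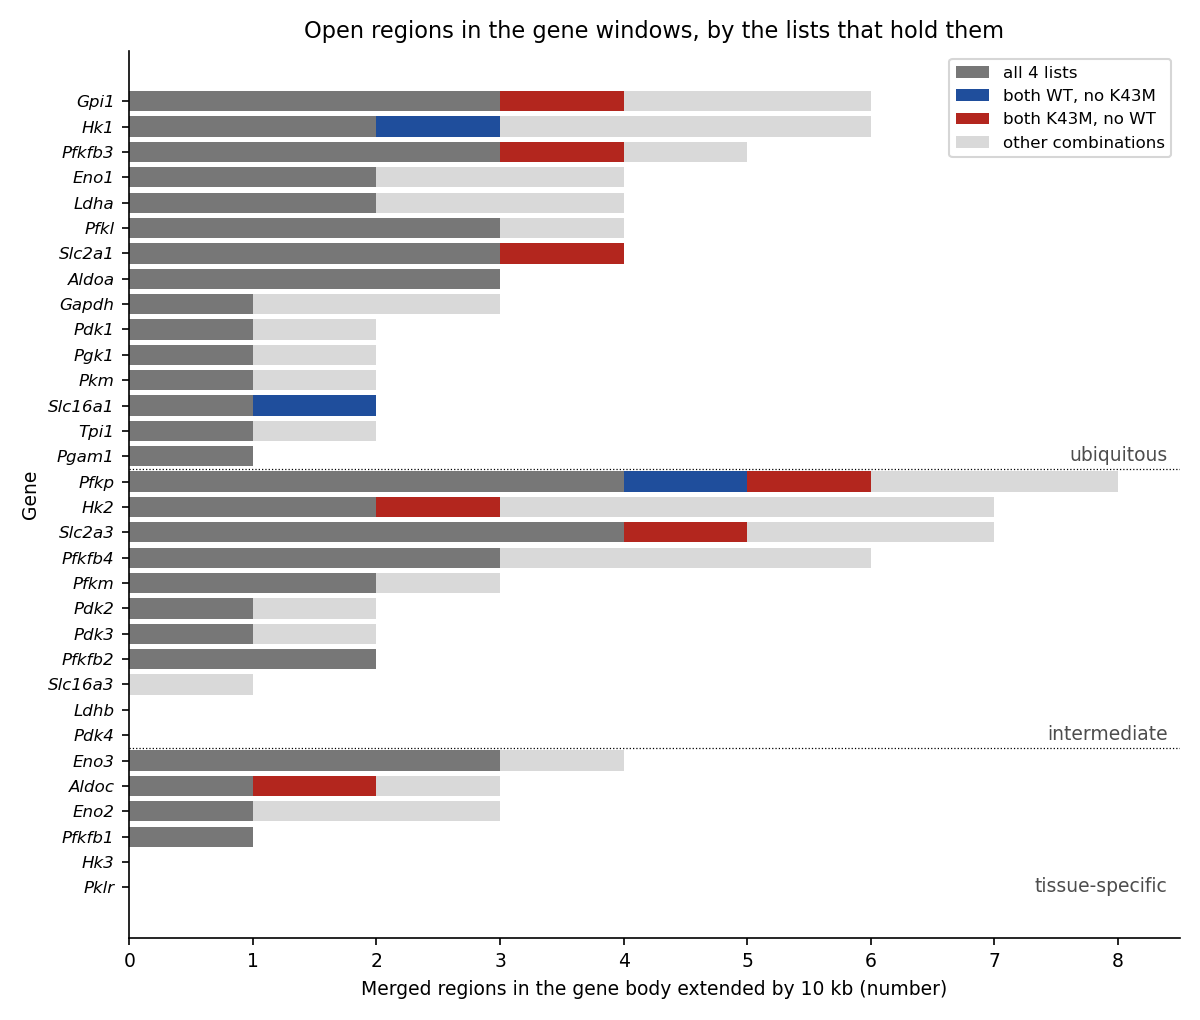
Number of merged regions in the gene body extended by 10 kb for each of the 32 genes, stacked by the lists that hold them. *Pfkp* has 8 regions and *Hk3*, *Pklr*, *Ldhb* and *Pdk4* have none, and the 7 K43M-only regions fall in 7 different genes.

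**Figure D3:**
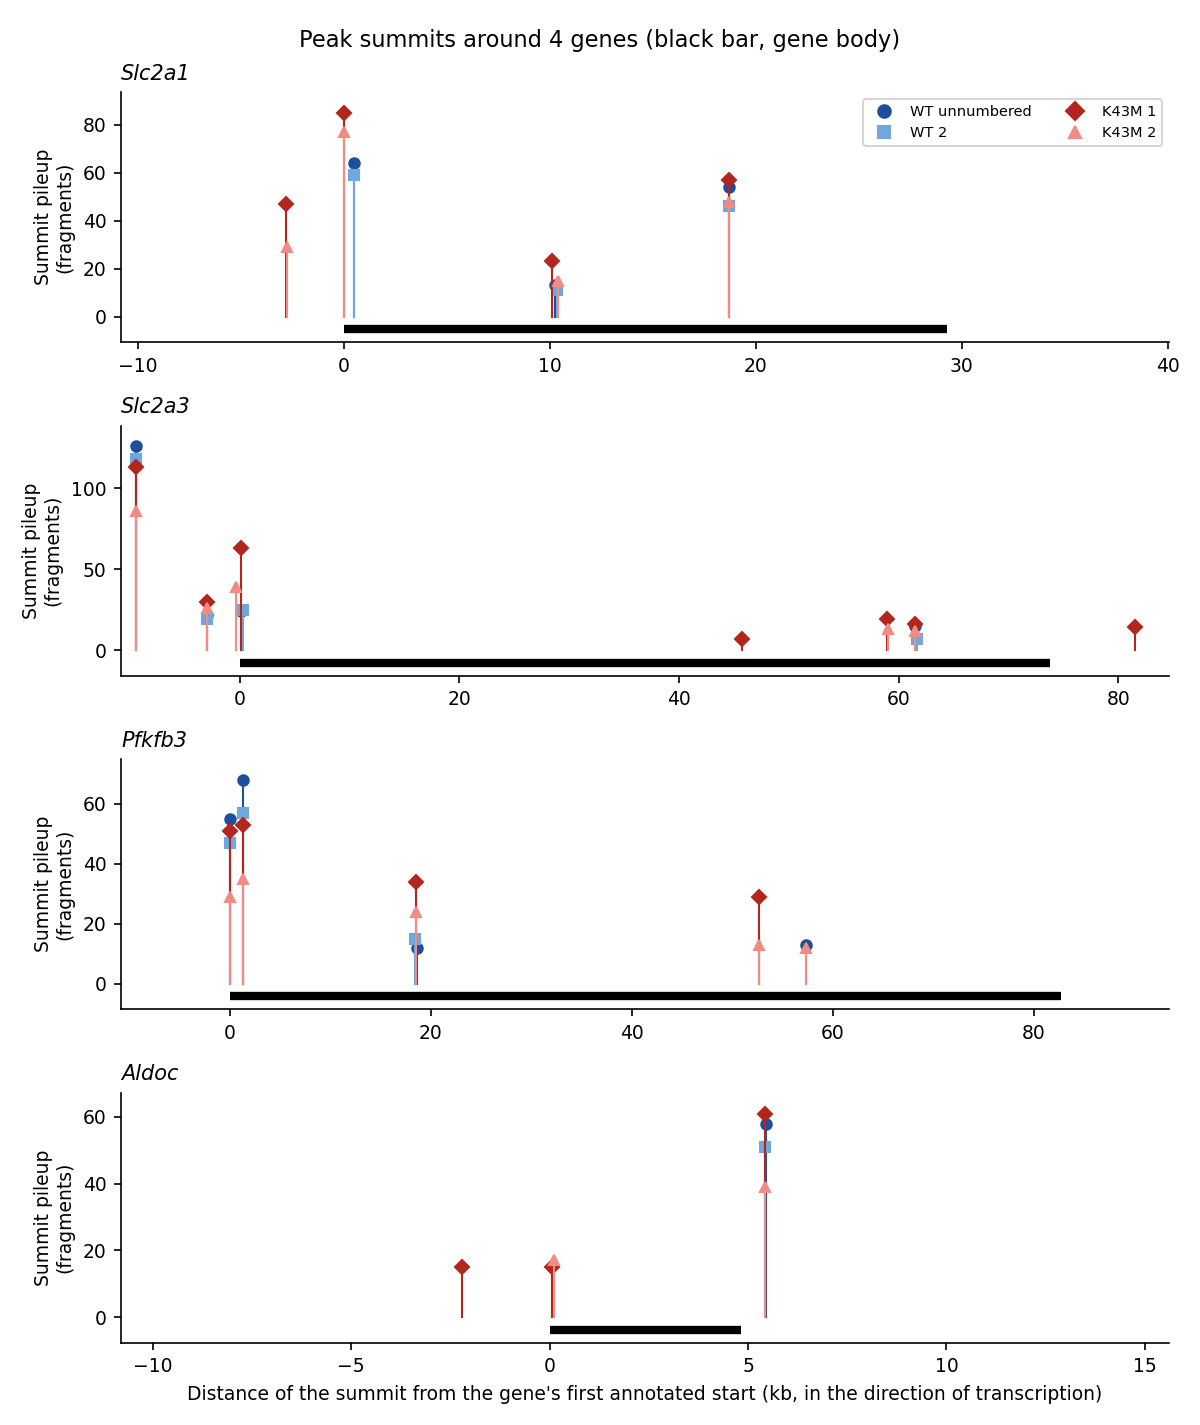
Summit pileup (fragments) against distance from the first annotated start (kb) at *Slc2a1*, *Slc2a3*, *Pfkfb3* and *Aldoc*, with 1 stem per peak and the gene body as a black bar. The WT and K43M summits at the *Slc2a1* start stand apart, and the K43M lists alone have stems upstream of it.

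The summit pileups in shared regions were compared between genotypes in 1 limma fit over all 21012 regions. In the whole fit 404 regions (1.92%) were called higher and 356 (1.69%) lower in K43M at an adjusted p under 0.05. Of the members' 53 regions 2 were called higher, those of *Slc2a3* and *Pfkfb3*, and 0 lower. An unadjusted p under 0.05 was reached by 8 of the 53 and by 3904 of all regions. The median log2 difference was 0.125 over the members' regions and 0.0044 over all. Among the 24 tallest promoter regions shared by all lists, the scaled pileups of both K43M lists were above those of both WT lists at 7 (*Aldoa*, *Eno3*, *Gpi1*, *Ldha*, *Slc16a1*, *Slc2a1* and *Slc2a3*), against 23.0% of all shared promoters. They were below at 2 (*Pfkl* and *Pfkp*), against 22.7%. The region counted for *Eno3* has its highest summit 11 bp from the start of *Pfn1* and 2569 bp upstream of *Eno3*. Both calls were lost with fold enrichment in place of pileup, without the variance trend in limma, and without K43M 1 or K43M 2, and that of *Pfkfb3* also with quantile normalisation. Without WT unnumbered the called regions were those of *Slc2a3* and, at its inner start, *Pfkp*.

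**Figure D4:**
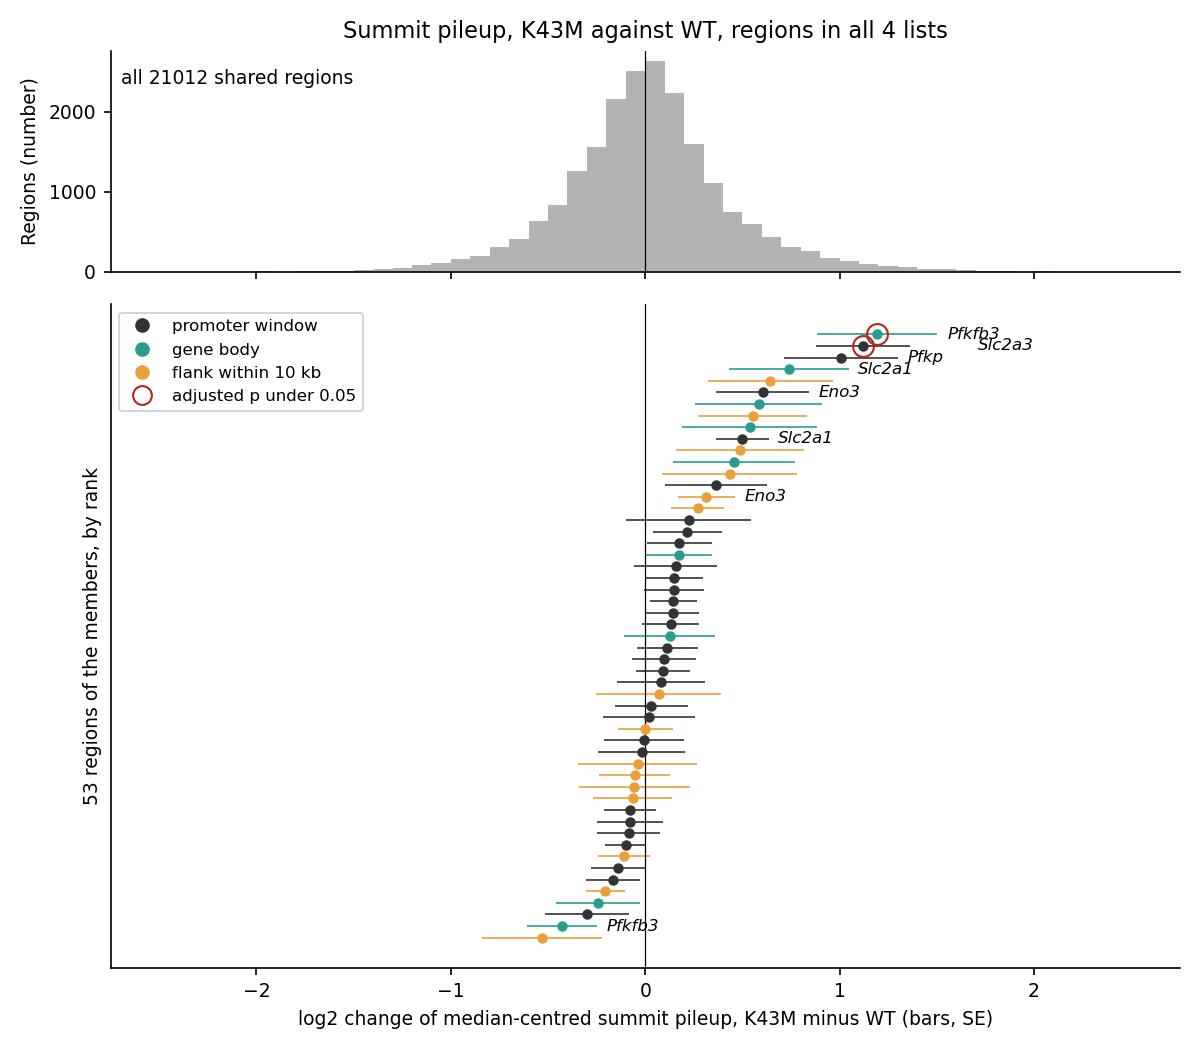
Log2 change of the median-centred summit pileup, K43M minus WT, for all 21012 shared regions (top, histogram) and for the 53 regions of the members in rank order (bottom, with SE bars). Colours give the place, and the 2 regions with an adjusted p under 0.05, at *Pfkfb3* and *Slc2a3*, are ringed at the right. Names mark the 8 regions with an unadjusted p under 0.05.

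The promoter windows were last compared by sequence. RefSeq had 51 windows for 31 members, some of them overlapping starts of the same gene, and none for *Slc2a3*. A hypoxia core was found in 37 of the 51, against 49.3% of 21263 protein-coding windows. Among windows with a peak in all lists it was found in 25 of 28 of the members and in 68.4% of all. The SP1 box was in 24 of 51 (46.2% of all), the CCAAT box in 20 (38.2%) and the E-box in 6 (7.84%). The ETS site was in 2 of 51, at *Aldoc* and *Pfkfb1*, against 11.6% of all windows. None of the 40 windows of ubiquitous and intermediate genes held it. The *Ldha* window shown above has 2 E-boxes and 3 SP1 boxes, *Aldoa* 3 SP1 boxes, *Eno1* 3 SP1 and 2 CCAAT boxes, and *Eno2* none of the 5 motifs.

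The ratio of CpG observed to that expected from the bases had a median of 0.718 in the 28 member windows with a peak in all lists and of 0.158 in the 17 with none. Over all protein-coding windows these medians were 0.817 and 0.251. Some windows without a peak were nevertheless rich in CpG. The ratio was 0.933 at *Slc16a3* and 0.696 at *Ldhb*, both above that of *Slc2a1* (0.605) and *Gapdh* (0.501). *Pdk2*, with a peak in 1 list, had 0.817. At *Hk3* and at the *Pklr* windows it was 0.407 or lower.

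**Figure D5:**
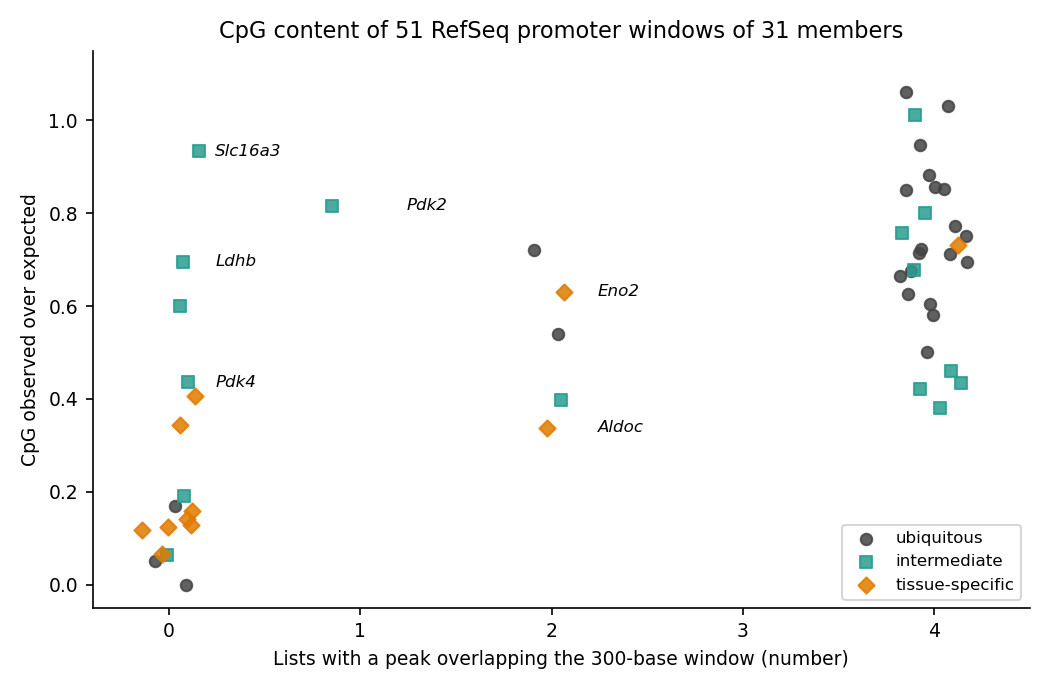
CpG observed over expected in 51 RefSeq promoter windows of 31 members against the number of lists with a peak overlapping the 300-base window. Points are jittered sideways and marked by isoenzyme class. Windows with peaks in all lists lie between 0.38 and 1.06, and *Slc16a3*, *Ldhb* and *Pdk2* combine a high ratio with a peak in at most 1 list.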

How the data were processed

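ATAC-seq had been carried out on 2 wildtype and 2 K43M lines. Per the labels and the study's methods, the authors used Trimmomatic 0.36 for trimming, BWA 0.7.15 for mapping to mm10 and SAMtools 1.3.1 for filtering, and called peaks per line with MACS2 2.1.0, shifting read ends and extending them to 200 bp. The deposited lists give each peak's fold enrichment over local background (a ratio) and -log10 p and -log10 q values, as the authors' caller made them. No read totals are given, and their number limits the precision.

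From the deposited ratio and -log10 p, whole summit pileups and local backgrounds were recovered (tolerance 0.0006 in -log10 p). Peaks were merged into 50965 regions at 1 bp of overlap. Promoter windows used every start in GENCODE release 21 of the mouse, on GRCm38. Pileups of 21012 regions in all lists were log2 transformed with no pseudocount, median-centred and tested with limma 3.58.1 (R 4.3.3; trend; Benjamini-Hochberg over all regions). No filter on low values was used. Scripts were tested on simulated data. Groups came from the labels for 3 lists, and from the design text for WT unnumbered.

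Members and gene lists were chosen with earlier results of these data known. Values are given for members whose promoter presence differs between lists, those with genotype-only or called regions, the 5 with the largest log2 change at the promoter, tissue-specific members, and *Slc2a1*, *Slc2a3*, *Hk2*, *Ldha* and *Gapdh*. The tallest promoter peaks of the others are given for completeness. Replicate numbers name separate lines and were not used as pairs in the main fit. Alternatives to thresholds, windows, merging, measure, scaling and lists are given in the closing section. Reads were not analysed here.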

Additional observations from a re-analysis of the deposited data

How the results depend on the processing

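A paired fit with the line number as a replicate block was added after the data were seen, with WT unnumbered as line 1 after the design text. In limma it called 1035 regions higher and 1007 lower, 4 of them the members', with adjusted p of 0.0112 at the *Slc2a1* start and 0.00544 at the inner *Pfkp* start. The numbers name separate lines, and deviations of same-numbered lists correlated with r = 0.0694 over 21012 regions, so the lists share only a number.

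Of 193 recomputed values, 140 kept their side of the threshold or, for counts, moved little. Another 40 counts moved further, 10 log2 differences lost their call and 3 gained one. None reversed a called direction, but small differences that were not called could change sign. At the main *Pfkp* start the log2 difference went from -0.09 to 0.16 with fold enrichment. The members open in all lists numbered 20 to 25 over the settings tried. The ubiquitous ones among them numbered 15, and 13 when the summit had to lie in the promoter window. Promoter peaks in both K43M lists alone were found for 3 members at a -log10 q of at least 5 (1 in WT alone, *Eno3*) and for 2 when the summit had to lie in the window (*Slc2a1* and *Aldoc*). With each list reduced to its best 33038 peaks, 1 member was WT-only, and 5 regions in the gene windows were. The gene bodies alone held 63 regions. With the intermediate genes counted as tissue-specific, 8 of these had a promoter peak in all lists.

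In the limma fit over all shared regions, fold enrichment called 6 higher and 4 lower, quantile normalisation 256 and 205, no variance trend 3 and 3, and the upper 50% by mean pileup 120 and 115. Of the members' regions 0, 1 and 0 were called under the first 3, and the cause was not tested. None was called among the upper 50%, a fit that the *Slc2a3* start and the *Pfkfb3* intron did not enter because of their low pileups. The adjusted p of the *Slc2a3* start in limma was 0.413 with fold enrichment, 0.0411 with quantile normalisation and 0.0799 without the trend, and 0.131, 0.0747 and 0.0759 for the *Pfkfb3* intron.

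Leaving out 1 list leaves a lone line in its genotype, assumed to vary like the others. The K43M-only promoter members then ranged from 1 to 3, the WT-only from 0 to 1, and the tissue-specific genes open in every list from 1 to 2 (with *Eno2* without WT 2, and with *Eno3* without K43M 2). K43M-only regions in the gene windows ranged from 10 to 15 and WT-only ones from 3 to 7. Regions called higher ranged from 1 (without K43M 2) to 556 and lower from 7 (without K43M 2) to 423 in limma, with 0 to 2 of the members'. The adjusted p of the *Slc2a3* start was 0.0322 and 0.0246 without WT unnumbered and WT 2, and 0.16 and 0.125 without K43M 1 and K43M 2. For the *Pfkfb3* intron it was 0.181, 0.0446, 0.149 and 0.198. Peak lists give no depth, which limits every statement on a missing peak.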
